A study of Homo sapiens with 8 samples.

Results

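The let-7-5p family was analysed as a set of 9 mature miRNAs in 4 tumor-derived cell lines. Its members were hsa-let-7a-5p, hsa-let-7b-5p, hsa-let-7c-5p, hsa-let-7d-5p, hsa-let-7e-5p, hsa-let-7f-5p, hsa-let-7g-5p, hsa-let-7i-5p and hsa-miR-98-5p. Membership was set by name, but the family was chosen with earlier results of these data known. The members took 12 of the 2813 entries and 9 of the 2588 miRNA names in the small RNA-seq table. The lines were Huh-7 (liver cancer), A-549 (lung adenocarcinoma), ES-2 (ovarian cancer) and MV-3 (melanoma), each with 2 replicate libraries. All cells were parental and untreated, were grown in DMEM with serum, and were harvested 48 h after seeding. Each line stands for a single tumor, so differences between cancer types and between these individual lines cannot be told apart. Depth ranged from 1173902 to 2670030 miRNA reads in a library, and let-7-5p reads from 26291 in Huh-7 replicate 2 to 486048 in ES-2 replicate 2.

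let-7 miRNAs are among the oldest known miRNAs and keep the same seed, the stretch of bases through which a miRNA finds its target mRNAs, from worms to humans. They rise during differentiation and repress growth-promoting mRNAs such as those of RAS proteins, HMGA2, MYC and the RNA-binding protein IGF2BP1. Their precursors are bound by LIN28 proteins, which block maturation of the family in embryonic and many tumor cells. Since all members share the seed, the family is often treated as a single sum. How that sum was divided among the members is described here for each line.

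The mature sequences are shown because the members are told apart by few bases. They are from RefSeq (GRCh38.p14), in which all 9 members were found, and are written from the 5′ end with the seed (bases 2 to 8) in capitals.
let-7a-5p: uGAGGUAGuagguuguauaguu
let-7b-5p: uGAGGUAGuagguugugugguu
let-7c-5p: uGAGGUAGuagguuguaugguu
let-7d-5p: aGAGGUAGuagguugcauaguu
let-7e-5p: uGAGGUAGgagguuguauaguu
let-7f-5p: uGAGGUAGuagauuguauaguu
let-7g-5p: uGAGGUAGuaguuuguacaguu
let-7i-5p: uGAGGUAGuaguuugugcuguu
miR-98-5p: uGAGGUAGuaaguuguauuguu

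All 9 sequences had 22 bases and the same seed, and 14 positions were identical in all of them. Counted from the 5′ end of let-7a-5p, let-7c-5p differed by A19G, let-7e-5p by U9G and let-7f-5p by G12A. let-7b-5p carried A17G and A19G, let-7d-5p U1A and U16C, let-7g-5p G12U and U18C, and miR-98-5p G11A and A19U. The most distant from let-7a-5p was let-7i-5p, with G12U, A17G, U18C and A19U. Of 36 member pairs, 4 differed at 1 position, namely let-7a-5p with let-7c-5p, let-7e-5p or let-7f-5p, and let-7b-5p with let-7c-5p. How reads that fit several members were counted was not stated, so the values of these pairs are the least certain. The same seed was found in 2 other human miRNAs of the reference. miR-4458 had 8 reads over all 8 libraries and miR-4500 had 0, which allows up to 3 reads in a library, so nearly all reads with this seed were those of the 9 members.

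The 9 members came from 12 hairpins. let-7a-1, let-7f-1 and let-7d lie on chromosome 9 in exons of MIRLET7A1HG, with 310 bases between let-7a-1 and let-7f-1 and 2400 between let-7f-1 and let-7d. let-7a-2 lies in an intron of MIR100HG on chromosome 11, beside miR-100 and a miR-125b copy. let-7a-3 and let-7b lie in MIRLET7BHG exons on chromosome 22, with 863 bases between them. let-7f-2 and miR-98 lie on chromosome X in an intron of HUWE1, with 850 bases between them. let-7c lies on chromosome 21 at 16539828 to 16539911 in a MIR99AHG exon, and let-7e on chromosome 19 at 51692786 to 51692864 in an intron of SPACA6. let-7g lies on chromosome 3 at 52268278 to 52268361 in an intron of WDR82. let-7i lies on chromosome 12 at 62603686 to 62603769, within an intron of MIRLET7IHG and an exon of another annotated gene. let-7d spans 94178834 to 94178920, let-7b 46113686 to 46113768 and miR-98 53556223 to 53556341 on their chromosomes. Coordinates are those of GRCh38, and the positions of the let-7a and let-7f copies are given with their sequences further on.

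The labels of the lines were checked against marker miRNAs. The hepatocyte miRNAs miR-122-5p and miR-885-5p had at least 252449 and 9256 reads in each Huh-7 library and at most 57 and 5 in any other. Of 5 epithelial miRNAs, miR-200b-3p had at least 1716 reads in Huh-7 and A-549 libraries and at most 39 in ES-2 and MV-3, while miR-141-3p had at most 11 in any library. The melanocyte miRNA miR-211-5p had 0 reads in both MV-3 libraries and miR-204-5p had 2 in each, so these markers were absent or at the floor in this melanoma line. Most miR-204-5p reads, 141 and 87, were in Huh-7. Of 6 blood cell miRNAs, miR-142-3p and miR-142-5p had 255 to 657 reads in ES-2 and 0 in the other lines, and the other 4 had at most 4 reads in any library. Their part in the let-7 results was not tested.

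Shares of the family were calculated in each library as reads of a member per summed reads of the 9 members, which makes them independent of library size and of normalization. In RNA from whole cultures, fewer cells with a miRNA and less of it in each cell cannot be told apart. let-7a-5p was the largest member in every line. It held 59.6% and 60.3% of the family in the ES-2 replicates, 60.4% and 60.9% in MV-3, 35.2% and 37.2% in Huh-7, and 42.6% and 42.5% in A-549. The ES-2 and MV-3 libraries lay within a narrow band above the other 4, and A-549 lay above Huh-7 without overlap.

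The rank below let-7a-5p set Huh-7 apart from the other lines. In A-549, MV-3 and ES-2 it was held by let-7i-5p. Its shares were 19.4% and 18.3% in the A-549 replicates, 12.2% ± 0.257 (SD, n = 2) over those of MV-3, and 13.3% and 12.5% in ES-2. In Huh-7, let-7i-5p had 31 and 60 reads, shares of 0.103% and 0.228%. The mean share in A-549 was 114-fold that in Huh-7, the widest span of any member.

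In Huh-7 the rank below let-7a-5p was taken by let-7e-5p, with 29.3% and 30.4% of the family. let-7e-5p held 8.93% and 9.08% in the A-549 replicates, 6.69% and 6.62% in MV-3, and 2.35% and 2.54% in ES-2. It thus differed without overlap between every pair of lines, with Huh-7 highest and ES-2 lowest, a 12.2-fold span. A-549 exceeded ES-2 3.69-fold and MV-3 exceeded it 2.72-fold.

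let-7f-5p ranked next in all lines. It held 26.2% and 23.7% in the Huh-7 replicates, 15.5% and 15.9% in A-549, 10.0% and 10.1% in MV-3, and 10.6% and 10.3% in ES-2. Huh-7 and A-549 lay above the other lines, and the means of ES-2 and MV-3 were close. let-7b-5p was largest in A-549, with 6.22% and 6.92%, followed by ES-2 with 3.91% and 4.45% and MV-3 with 3.15% and 3.27%. It was smallest in Huh-7, with 0.232% and 0.472%, and the lines did not overlap. let-7g-5p was largest in ES-2, with 7.65% and 7.37%. A-549 (5.13% ± 0.0813, SD, n = 2) and MV-3 (5.01% ± 0.0816) differed in let-7g-5p by about as much as their replicates, and Huh-7 had 2.51% ± 0.230.

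let-7c-5p, let-7d-5p and miR-98-5p were the 3 smallest members in A-549, MV-3 and ES-2. let-7c-5p held 5.87% and 5.45% in the Huh-7 replicates, where it was the largest member after let-7a-5p, let-7e-5p and let-7f-5p. Its share was 0.514% ± 0.0580 in A-549, 0.596% ± 0.0104 in MV-3 and 0.829% ± 0.0117 in ES-2, far below both Huh-7 libraries. let-7d-5p went the other way, with 0.102% ± 0.0253 in Huh-7, 0.643% ± 0.0170 in A-549, 1.06% ± 0.0637 in MV-3 and 0.981% ± 0.0208 in ES-2. miR-98-5p was largest in A-549, with 1.09% ± 0.0179, against 0.559% ± 0.00623 in MV-3, 0.720% ± 0.0426 in ES-2 and 0.173% ± 0.0786 in Huh-7. In Huh-7, the order of miR-98-5p, let-7i-5p and let-7d-5p was not resolved, since their replicates overlapped and rested on 22 to 69 reads. All other neighbours in the order of shares within a line were apart without overlap of the replicates. In Huh-7, however, let-7b-5p and miR-98-5p had 70 and 69 reads in replicate 1, so their order was not resolved either.

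**Figure D1:**
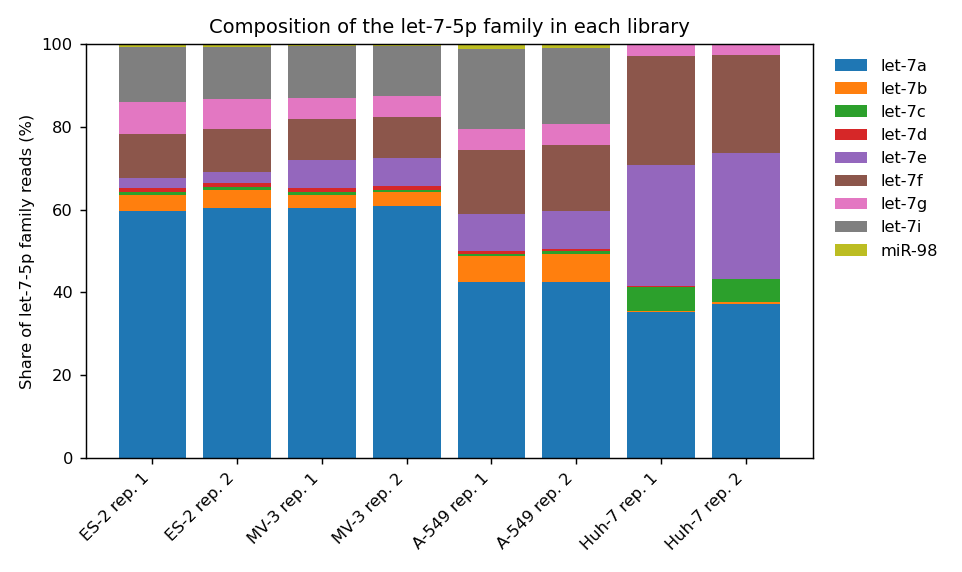
Share of each let-7-5p member in the summed reads of the family (y axis, percent) in each of the 8 libraries (x axis), drawn as stacked bars that add to 100%. let-7a fills about 60% of the bars in ES-2 and MV-3 and less in A-549 and Huh-7, let-7i is absent to the eye in Huh-7 at 0.166%, and let-7e fills 29.9% there.

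Differences over the 4 lines were tested for each member by the F ratio, with an exact permutation test that gave p = 0.00952 for all 9. This is the smallest value that the partitions of 8 libraries into 4 pairs allow, and 9 such tests were run, without adjustment. The tests are not independent, since the shares within a library add to a fixed total. How often other miRNAs reach this value was not computed, so reaching it does not set the family apart. On the level scale introduced below, libraries did not overlap for 63.1% of all miRNAs in MV-3 against ES-2 and 82.2% in A-549 against Huh-7. These were the lowest and highest values of any pair of lines. Leaving out any 1 library kept all 9 below 0.05. The 95% Wilson interval of a single library's share spanned at most 1.17 percentage points, and it covers counting error only.

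The evenness of the family was described by the effective number of members, the inverse of the summed squared shares. It was 3.88 and 3.92 in the A-549 replicates, 3.53 and 3.44 in Huh-7, 2.51 and 2.48 in MV-3, and 2.55 and 2.51 in ES-2. A-549 thus had the most even family, followed by Huh-7, while the values of MV-3 and ES-2 lay side by side. The 3 largest members held 91.0% ± 0.375 of the family in Huh-7, the most of any line. They held 77.1% ± 0.545 in A-549, 82.9% ± 0.131 in MV-3 and 83.3% ± 0.250 in ES-2.

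Ratios to let-7a-5p are free of the constraint that shares add to 100%. Per 100 reads of let-7a-5p there were 83.3 and 81.7 reads of let-7e-5p in the Huh-7 replicates, 21.2 as the mean in A-549, 11.1 and 10.9 in MV-3, and 3.94 and 4.21 in ES-2. For let-7f-5p the number was 69.1 in Huh-7, 36.8 in A-549, 16.6 in MV-3 and 17.5 in ES-2, as means of a line. For let-7c-5p it was 15.7 in Huh-7, 1.21 in A-549, 0.982 in MV-3 and 1.38 in ES-2. These 3 members, whose shares were largest in Huh-7, are also the 3 that differ from let-7a-5p at a single base, as shown above. Their lowest ratios in any library were 0.966 for let-7c-5p, 3.94 for let-7e-5p and 16.6 for let-7f-5p per 100 let-7a-5p reads. let-7g-5p had the narrowest range of ratios over the lines, between 6.32 and 12.8 per 100.

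Levels were compared next as normalised CPM, that is reads per 1000000 miRNA reads divided by the TMM factor with which the authors offset differences in library composition. In ES-2, MV-3 and A-549, let-7a-5p ranked second among all miRNAs in every library, whereas it ranked 30 and 28 in the Huh-7 replicates. let-7e-5p ranked 22 in both ES-2 libraries, 16 in both MV-3 libraries, 10 and 8 in A-549, and 35 and 31 in Huh-7. let-7i-5p ranked 7 or 8 in ES-2 and MV-3, 4 in both A-549 libraries, and 337 and 251 in Huh-7.

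Among the members present at high levels outside Huh-7, let-7i-5p was at 17987 and 18449 normalised CPM in MV-3, 30879 and 31297 in ES-2, and 33693 and 37527 in A-549. let-7f-5p was at 14529 and 15467 in MV-3, 24558 and 25806 in ES-2, and 26819 and 32521 in A-549. For both, A-549 lay above ES-2 by less than MV-3 lay below it. let-7g-5p had another order, with 17715 and 18406 in ES-2, 8995 and 10385 in A-549, and 7356 and 7597 in MV-3. let-7b-5p was at 10787 and 14171 in A-549, 9040 and 11111 in ES-2, and 4578 and 5018 in MV-3, so that A-549 and ES-2 overlapped. Of the low members, miR-98-5p was at 1916 and 2211 in A-549, 1737 and 1722 in ES-2, and 817 and 850 in MV-3. let-7d-5p was at 1137 and 1293 in A-549, 2305 and 2412 in ES-2, and 1599 and 1551 in MV-3, lowest in A-549 of these 3 lines. In Huh-7, let-7f-5p lay at 2224 and 2126 and let-7g-5p at 227 and 211. The other 4 of these members were between 7.51 and 42.3 there, against a floor of 3 reads that corresponds to at most 2.45 normalised CPM in any library.

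**Figure D2:**
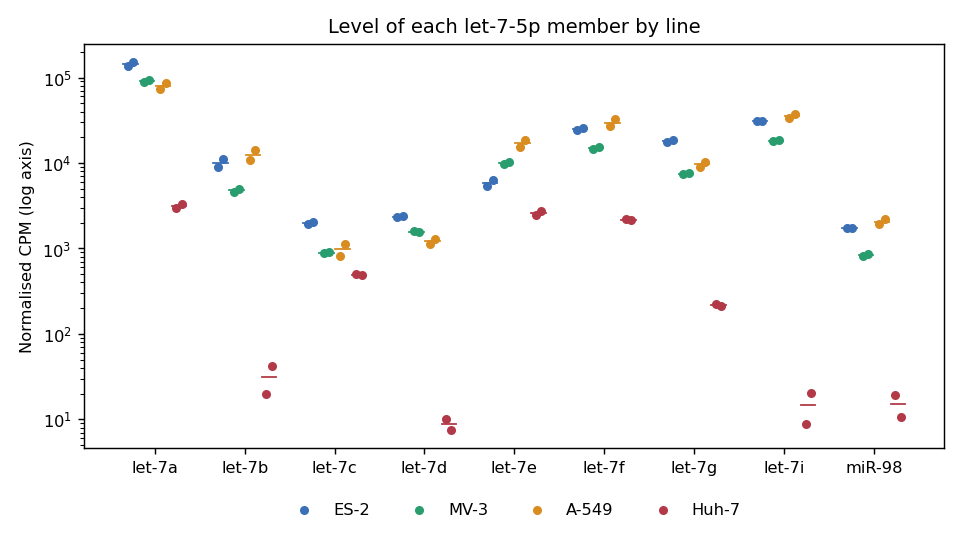
Level of each let-7-5p member (x axis) in normalised CPM (y axis, log scale), with a point for each library, a bar at the mean of the line and a color for each of the 4 lines. Huh-7 is the lowest line for every member on this scale (without TMM factors A-549 is below it for let-7c, by -0.50 on the log2 scale). It is nearest to the other lines for let-7c and let-7e, where MV-3 and A-549 still exceed it by 1.93 and 2.70 for let-7e (log2). It is far below them for let-7i, let-7d, let-7b and miR-98.

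In MV-3 against ES-2, let-7e-5p moved opposite to the other members that were called. Its normalised CPM was 9716 and 10153 in MV-3 and 5431 and 6339 in ES-2, a log2 difference of 0.76 (SE 0.12, limma's adjusted p = 0.00252). let-7a-5p, at 87714 and 93415 in MV-3 and 137879 and 150472 in ES-2, was called lower by 0.67 on the log2 scale (-0.67, SE 0.10, limma's adjusted p = 0.00248). let-7c-5p, let-7f-5p and let-7g-5p were called lower as well, with log2 differences of -1.16, -0.75 and -1.27. The 4 of 9 members called lower compare with 14.2% of all 528 miRNAs tested, and the 1 called higher with 11.6%. The libraries did not overlap for 9 of 9 members, let-7e-5p above and the other 8 below ES-2, against 63.1% of all miRNAs without overlap. The members' median log2 difference was -0.77 and that of all miRNAs 0. The threshold was missed by let-7b-5p, miR-98-5p, let-7i-5p and let-7d-5p, with log2 differences of -1.06, -1.05, -0.77 and -0.58.

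The standard errors of miR-98-5p, let-7b-5p and let-7i-5p in this fit were 0.25, 0.34 and 0.33. The fit shares the spread with the Huh-7 libraries, whose replicates had 69 and 31, 70 and 124, and 31 and 60 reads of these members. let-7d-5p, with 36 and 22 reads there, had a standard error of 0.14. With MV-3 and ES-2 fitted alone, the standard errors of miR-98-5p, let-7b-5p and let-7i-5p were 0.062, 0.12 and 0.048, and 8 members were called lower. Shares of all miRNAs called are given for the main fit only, so counts under the alternatives have no such comparison. edgeR and DESeq2 on recovered reads also called 8 lower, whereas scaling by library size only left 2 and leaving out single libraries left 1 to 6. let-7e-5p lost its call without ES-2 replicate 1, without either MV-3 replicate or without either Huh-7 replicate, with limma's adjusted p of 0.0141 to 0.0265.

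In A-549 against ES-2, let-7e-5p again was the 1 member called higher. Its normalised CPM was 15490 and 18603 in A-549, a log2 difference of 1.53 (SE 0.12, limma's adjusted p = 5.82e-05). let-7a-5p, let-7c-5p, let-7d-5p and let-7g-5p were called lower, with log2 differences of -0.85, -1.04, -0.96 and -0.90. The 4 members called lower compare with 17.6% of all miRNAs and the 1 called higher with 23.7%. The libraries did not overlap for 8 members, all but let-7b-5p, against 72.2% of all miRNAs. The call of let-7e-5p held in each alternative tried, with a log2 difference of 1.02 under library size only. Without either ES-2 replicate, 2 members were left as lower. The remaining 4 had differences of 0.19 to 0.30 without a call, all of which turned negative under library size only. The members' median was 0.19 and that of all miRNAs 0.0031. This comparison shares the ES-2 libraries with the preceding one.

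In A-549 against MV-3, 4 members were called. let-7e-5p, let-7f-5p, let-7g-5p and miR-98-5p were called higher in A-549, with log2 differences of 0.77, 0.98, 0.37 and 1.30, which compares with 24.1% of all miRNAs. By limma, 0 members were called lower (15.5% of all miRNAs), as by edgeR and DESeq2, and 1 was lower at an unadjusted p below 0.05. This was let-7d-5p, with a log2 difference of -0.38 (limma's adjusted p = 0.0644). The libraries did not overlap for 8 members, all but let-7c-5p, against 72.3% of all miRNAs. let-7b-5p and let-7i-5p had differences of 1.37 and 0.96 without a call, and their standard errors of 0.34 and 0.33 became 0.13 and 0.089 when these lines were fitted alone, where both were called. The members' median was 0.77 and that of all miRNAs 0.08. With 1 library left out, 1 to 5 members were called higher. It was 1 without either MV-3 replicate or A-549 replicate 2, and 2 without either ES-2 replicate.

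The signs of 3 differences between A-549 and MV-3, those of let-7c-5p, let-7e-5p and let-7g-5p, depended on the scaling. Without TMM factors the median log2 difference of all 528 miRNAs moved by -0.60, and the counts became 0 higher and 4 lower, namely let-7a-5p, let-7c-5p, let-7d-5p and let-7g-5p. The share of all miRNAs called without TMM factors is not given. Under library size only, let-7c-5p was -0.83, let-7e-5p -0.18 and let-7g-5p -0.58. By reads per 1000000 miRNA reads, let-7e-5p was at 10232 ± 1141 in A-549 and 11562 ± 539 in MV-3. The larger share of let-7b-5p, miR-98-5p, let-7f-5p and let-7i-5p in A-549 than in MV-3, by 2.04-, 1.95-, 1.56- and 1.55-fold, does not depend on this scaling, nor does the smaller share of let-7a-5p.

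**Figure D3:**
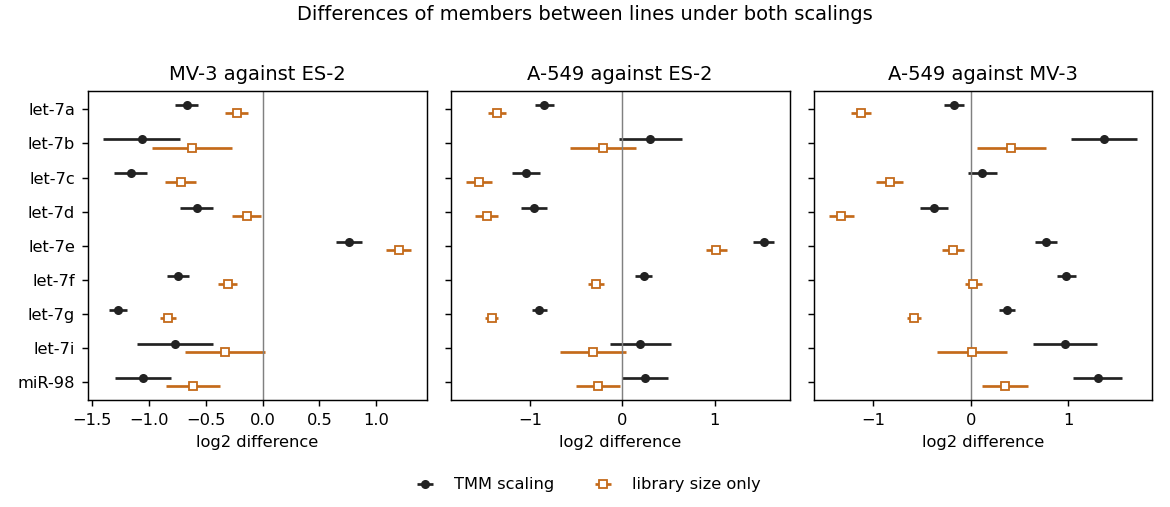
Difference of each let-7-5p member on the log2 scale (x axis) with its standard error, for MV-3 against ES-2, A-549 against ES-2 and A-549 against MV-3, with TMM scaling (filled points) and with library size only (open squares). let-7e lies to the right of the other members in both comparisons with ES-2, and the points for A-549 against MV-3 move to the left without TMM factors, for let-7e from 0.77 to -0.18.

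Compared with Huh-7, all 9 members were called higher in MV-3 (20.1% of all miRNAs higher, 26.9% lower) and in A-549 (28.6% higher, 23.7% lower). All 9 were without overlap of the libraries, against 79.0% of all miRNAs without overlap for MV-3 and 82.2% for A-549. In MV-3 the log2 differences ran from 0.85 for let-7c-5p and 1.93 for let-7e-5p to 10.30 for let-7i-5p. In A-549 they ran from 0.97 for let-7c-5p and 2.70 for let-7e-5p to 11.26 for let-7i-5p. let-7d-5p, with 36 and 22 reads in the Huh-7 replicates, had 7.34 in MV-3 and 6.96 in A-549. The members' medians were 5.09 and 5.46, and those of all miRNAs -0.19 and -0.09.

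let-7c-5p was the least certain of these. Its normalised CPM was 498 and 489 in Huh-7, 876 and 903 in MV-3, and 821 and 1137 in A-549. Under library size only, A-549 against Huh-7 gave -0.50 (limma's adjusted p = 0.0145), the opposite sign, and MV-3 against Huh-7 gave 0.33 (0.0784). Its call in A-549 against Huh-7 was lost without either Huh-7 replicate (limma's adjusted p of 0.0190 and 0.0196). Its call in MV-3 against Huh-7 was lost without either replicate of these lines or without ES-2 replicate 1 (0.0117 to 0.0333). In Huh-7 against ES-2, all 9 were called lower (21.6% of all miRNAs lower, 27.7% higher), and libraries of 9 did not overlap (74.8% of all). All these comparisons share the Huh-7 libraries.

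The entries of let-7a-5p and let-7f-5p were then compared by genomic copy, since let-7a-5p has 3 loci and let-7f-5p has 2. The surroundings of the mature miRNA in each hairpin are shown, with 3 bases before and 5 bases after it (RefSeq, GRCh38.p14), because only bases outside the capitals, which mark the mature miRNA, can tell the copies apart.
let-7a-1, chr9:94175959-94175988, plus strand: ggaUGAGGUAGUAGGUUGUAUAGUUuuagg
let-7a-2, chr11:122146563-122146592, minus strand: gguUGAGGUAGUAGGUUGUAUAGUUuagaa
let-7a-3, chr22:46112749-46112778, plus strand: gggUGAGGUAGUAGGUUGUAUAGUUugggg
let-7f-1, chr9:94176350-94176379, plus strand: gagUGAGGUAGUAGAUUGUAUAGUUguggg
let-7f-2, chrX:53557241-53557270, minus strand: ggaUGAGGUAGUAGAUUGUAUAGUUuuagg

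The mature sequences are identical between copies. let-7a-5p reads were divided almost evenly over the 3 entries in every library. The chromosome 11 entry held 32.8% to 33.2%, the chromosome 22 entry 33.0% to 33.8% and the chromosome 9 entry 33.4% to 34.0%. The largest departure from an even 33.3% was 0.675 percentage points, and 17 of 24 Wilson intervals included the even value. let-7f-5p was divided into 48.4% to 50.2% on chromosome 9 and 49.8% to 51.6% on chromosome X. The entry on chromosome X was the larger in 7 of 8 libraries, with Huh-7 replicate 2 as the exception, and the departure from 50% was at most 1.62 percentage points. Only 4 of 16 intervals of let-7f-5p, all in Huh-7, included the even value, so the split was near even but the departure exceeded counting error in the other lines. The exact permutation test over lines did not reach 0.05 for any copy, with p = 0.543, 0.505 and 0.886 for the let-7a-5p entries on chromosomes 11, 22 and 9, and p = 0.0857 for let-7f-5p.

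**Figure D4:**
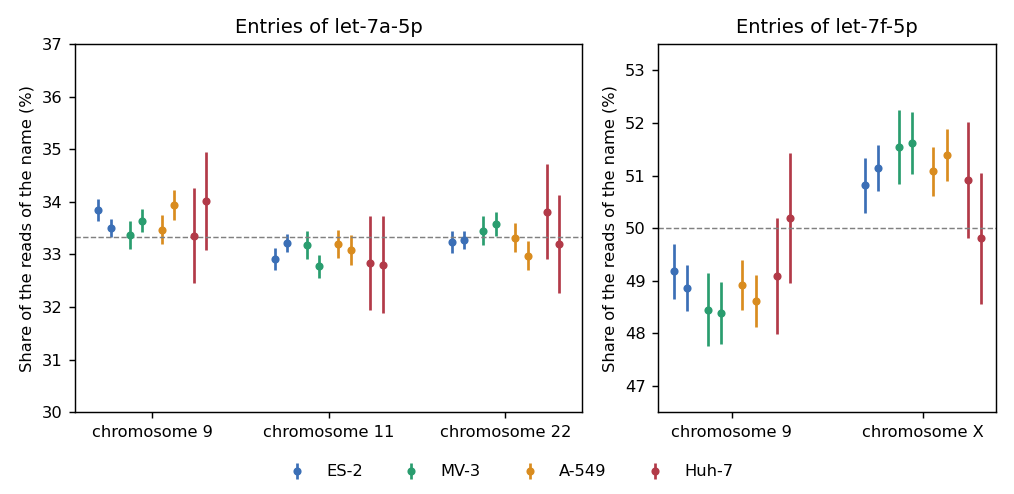
Share of the reads of let-7a-5p (left) and let-7f-5p (right) that the table assigns to each genomic copy (y axis, percent, axis not starting at 0), with 95% Wilson intervals, a point for each library and a color for each line. Dashed lines mark an even split, from which the points depart by at most 0.675 percentage points for let-7a and 1.62 for let-7f.

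The near-even split of let-7a-5p stood beside large differences in miRNAs that belong to its chromosome 11 locus alone. let-7a-2-3p, the other arm of the chromosome 11 hairpin, had 0 reads in both Huh-7 libraries, 0 and 6 in A-549, 25 and 19 in MV-3, and 68 and 71 in ES-2. Its neighbour miR-100-5p had 868 and 593 in Huh-7, against 185512 and 254171 in ES-2. The chromosome 11 entry of let-7a-5p nevertheless held 32.8% of the name in both Huh-7 libraries and 33.1% ± 0.216 in ES-2. The entries therefore carried no difference between lines of the size seen in miRNAs unique to the locus, and they are used here only as a sum.

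Members were also set against miRNAs of the same genomic cluster, which are processed from neighbouring hairpins. These ratios were chosen after values had been seen. miR-125a and miR-99b lie beside let-7e on chromosome 19, and miR-99a beside let-7c on chromosome 21. let-7e-5p had 0.377 and 0.432 reads for each read of miR-125a-5p in Huh-7. The ratio was 1.11 and 1.37 in A-549, 1.25 and 1.34 in MV-3, and 1.23 and 1.44 in ES-2, so both Huh-7 libraries lay below all others. Against miR-99b-5p the ratio was 0.554 ± 0.0745 in Huh-7, 2.20 ± 0.423 in A-549, 1.63 ± 0.0261 in MV-3 and 2.39 ± 0.262 in ES-2. miR-125a-5p to miR-99b-5p itself ranged from 1.26 ± 0.0455 in MV-3 to 1.79 ± 0.00154 in ES-2, with 1.37 ± 0.0528 in Huh-7. let-7c-5p to miR-99a-5p was 0.245 ± 0.0133 in Huh-7, against 2.12 ± 0.324 in MV-3, 2.19 ± 0.128 in ES-2 and 3.52 ± 0.628 in A-549. However, let-7c-5p differs from let-7a-5p at 1 base, and outside Huh-7 it had only 0.966 to 1.41 reads per 100 of let-7a-5p. How reads that fit both were counted was not stated, so this ratio is uncertain outside Huh-7. The part of misassigned reads in it was not tested.

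Within the family, let-7d-5p per let-7f-5p was 0.405% ± 0.0724 in Huh-7, 4.11% ± 0.186 in A-549, 10.5% ± 0.689 in MV-3 and 9.37% ± 0.0277 in ES-2. miR-98-5p per let-7f-5p was 0.686% ± 0.266 in Huh-7, 6.97% ± 0.246 in A-549, 5.56% ± 0.0913 in MV-3 and 6.87% ± 0.281 in ES-2. In both ratios, let-7f-5p is the sum of its copies on chromosomes 9 and X. The cluster of let-7d holds only the former copy and that of miR-98 only the latter, so these are not ratios within 1 cluster. In Huh-7, let-7f-5p had 7899 and 6226 reads. Of the cluster mates of its hairpins, let-7d-5p and miR-98-5p had 22 to 69 there, whereas let-7a-5p, whose let-7a-1 copy is the nearest to let-7f-1, had 10607 and 9783 over its 3 entries. Of the 6 ratios, the exact permutation test over lines gave p = 0.124 for let-7e-5p to miR-125a-5p, 0.0190 to miR-99b-5p, 0.0286 for let-7c-5p to miR-99a-5p and for miR-125a-5p to miR-99b-5p, 0.00952 for let-7d-5p and 0.0190 for miR-98-5p per let-7f-5p, unadjusted. Because the ratios were chosen after values of the same libraries had been seen, these p values are descriptive and no independent support for a difference.

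**Figure D5:**
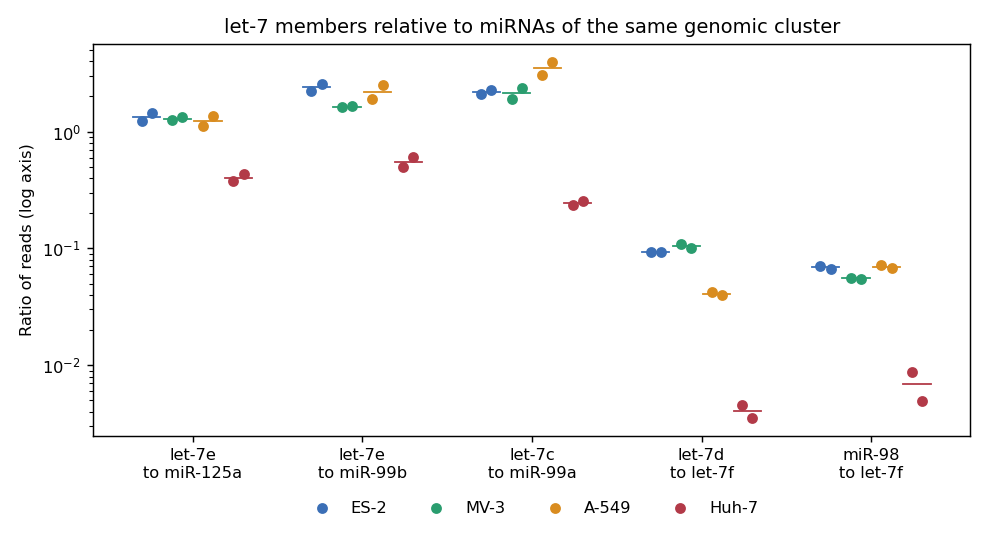
Ratio of reads of a let-7-5p member to a miRNA with a hairpin in the same genomic cluster (x axis: the pair, y axis: ratio, log scale), with a point for each library, a bar at the mean of the line and a color for each line. let-7f is summed over its copies on chromosomes 9 and X, of which only 1 lies beside let-7d and the other beside miR-98. Both Huh-7 libraries lie below the other 6 in all 5 ratios, where the mean is 0.405 for let-7e to miR-125a and 0.00405 for let-7d to let-7f.

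The hairpins were searched for GGAG, the letters in the loop region to which the zinc knuckles of LIN28 bind, on the strand of the RNA and between the end of the 5p arm and the hairpin's end. It was present in 9 of 12 family hairpins and not in let-7a-3, let-7b and miR-98. Anywhere in the hairpin, these letters occur in 43.4% of the 1562 human hairpins of the reference. let-7b-5p and miR-98-5p, the members without it, were among those with the lowest shares in Huh-7, as were let-7d-5p and let-7i-5p, which have it. A match is a description of the sequence and no binding was measured.

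Other products of the let-7 loci followed the lines in part. Of a list of 16 other arms and neighbours, 15 were tested. Against Huh-7, 12 of the 15 were called higher in MV-3 (20.1% of all miRNAs) and 11 in A-549 (28.6%). The 1 called lower in both (26.9% and 23.7% of all miRNAs) was miR-99a-5p, the neighbour of let-7c, with log2 differences of -2.26 in MV-3 and -2.86 in A-549. In MV-3 against ES-2, 2 were called higher (miR-99b-5p and miR-125a-5p, the chromosome 19 neighbours of let-7e, with log2 differences of 1.31 and 0.80) and 3 lower (miR-100-5p, miR-99a-5p and miR-125b-5p, with -1.11, -1.11 and -0.89). These counts of 15 stand beside 11.6% of all miRNAs higher and 14.2% lower, so they lie near the background. In A-549 against ES-2, the same 2 neighbours were called higher (1.66 and 1.65) and 6 lower, beside 23.7% and 17.6% of all miRNAs. The neighbours of let-7e thus moved with let-7e-5p in both comparisons, which share the ES-2 libraries. They did not in Huh-7 against ES-2, where miR-99b-5p and miR-125a-5p were called higher (0.94 and 0.55). let-7e-5p was called lower there (-1.17), though not under library size only (-0.21). Of the 15, 3 were called higher and 11 lower in Huh-7 against ES-2, beside 27.7% and 21.6% of all miRNAs. let-7i-3p and let-7b-3p had 0 reads in both Huh-7 libraries, which allows up to 3 in each, and let-7e-3p had 16 and 10. Between A-549 and MV-3, 2 of the 15 were higher in A-549 and 5 lower, beside 24.1% and 15.5% of all miRNAs.

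miRNAs with the pattern most like that of the family were sought among 245 other miRNAs whose mean in a line reached 100 reads per 1000000 miRNA reads, on the scale of log2(normalised CPM + 1). For the family sum these were miR-361-5p (Pearson's r = 0.999 over the 8 libraries), miR-361-3p (0.995) and miR-10a-5p (0.995), and over the 6 libraries without Huh-7 r was 0.978, 0.983 and 0.965. In the Huh-7 libraries, miR-361-5p was at 0 and 0.342 normalised CPM and miR-361-3p at 0 and 0, below the floor of 3 reads. miR-361-5p was also the nearest to let-7a-5p (0.995, and 0.778 without Huh-7). The nearest to let-7e-5p was miR-132-3p (0.968, and 0.902 without Huh-7). For let-7i-5p it was miR-27a-5p, with 0.994 over all libraries but 0.227 without Huh-7, so that this likeness rested on the Huh-7 libraries. The points share libraries and scaling, and no p was computed.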

How the data were processed

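The authors made small RNA libraries of the 8 samples from 50 ng of total RNA with a NEXTflex kit, whose adapters carry random bases. According to the study's methods and the submitters' processing notes, ends were clipped with cutadapt 1.14, reads were aligned to GRCh38 (hg38) with Bowtie2 2.3.2 and counted on miRBase miRNAs with featureCounts 1.5.3, and edgeR 3.18.1 scaled the libraries by TMM. The treatment of multi-mapping reads, strand and random bases was not given in the sources used here. Because let-7 members differ by few bases, these choices can move reads between members or copies. Intervals cover counting error only.

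The deposited signal values were TMM-normalised CPM, not counts. Whole reads were recovered as multiples of a constant of each library, with 100% of values whole within 0.001. TMM factors were 0.593 to 1.70. Entries sharing a name were summed, and 3 reads were taken as the detection floor. limma 3.58.1 (R 4.3.3) was fitted to log2 values of normalised CPM plus 1, with the trend option and 1 term per line over 8 libraries. A miRNA was called at a Benjamini-Hochberg adjusted p below 0.01 over the 528 miRNAs kept by filterByExpr. The log2 differences understate changes of miRNAs with few reads. Shares and ratios were tested with exact permutation tests of the F ratio. The labels name replicates without saying how they were cultured, while the study calls them biological; p values measure the spread between them. Tests were tried on simulated reads. Alternatives were edgeR 4.0.16 and DESeq2 1.42.0 on recovered reads, RLE factors, library size only, other filters, a pseudocount of 0.1, a replicate block, the highest entry of each name, fits of 2 lines, and leaving out libraries. Genes and introns were taken from GENCODE v44. Named miRNAs were the 9 members, the arms and neighbours of their loci, other miRNAs with the seed, the markers, and those most alike in pattern. The members and lists were chosen with earlier results of these data known.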

Additional observations from a re-analysis of the deposited data

How the results depend on the processing

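Of 972 member differences recomputed under the alternatives, 871 kept their direction and side of the threshold, 59 lost and 33 gained a call, and 9 changed sign. Under library size only, signs changed in A-549 against ES-2 for hsa-miR-98-5p (-0.26), hsa-let-7i-5p (-0.32), hsa-let-7f-5p (-0.28) and hsa-let-7b-5p (-0.21), in A-549 against MV-3 for let-7c-5p (-0.83), let-7e-5p (-0.18) and let-7g-5p (-0.58), and in A-549 against Huh-7 for let-7c-5p (-0.50). This follows from the removed factors. Leaving out single libraries, let-7c-5p in A-549 against MV-3 ran from -0.12 (without A-549 replicate 2) to 0.35. Members called lower in MV-3 against ES-2 numbered 8 with edgeR, DESeq2 and the fit of the 2 lines, but library size only gave 2. Counts under the alternatives stand without the share of all miRNAs called, which is given for the main fit only. Between A-549 and MV-3, those called higher were 2 without a filter, 2 with a pseudocount of 0.1 and 0 with library size only, which called 4 lower. Leaving out single libraries gave 0 to 1 members higher and 1 to 6 lower in MV-3 against ES-2 (1 lower without either ES-2 replicate or MV-3 replicate 1, and 2 without MV-3 replicate 2). It gave 2 to 4 lower in A-549 against ES-2 (2 without either ES-2 replicate), and 1 to 5 higher in A-549 against MV-3 (2 without either ES-2 replicate, 1 without either MV-3 replicate or A-549 replicate 2). A line left with 1 library is assumed to vary like the others, and fewer libraries raise the standard errors. The share test called 9 members in each leave-one-out, and the span of let-7e-5p to let-7a-5p over lines was 4.29 to 4.39 on the log2 scale.

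Deviations of same-numbered libraries correlated at 0.571 between ES-2 and Huh-7 and at 0.124 between MV-3 and A-549, but at -0.0039 to 0.0454 in the other 4 pairs of lines, so the numbers were not taken to pair the libraries throughout. With the replicate block, the number of members called was the same in each pair, with let-7b-5p gained (1.37, limma's adjusted p = 0.00372) and let-7g-5p lost (0.37, 0.0125) in A-549 against MV-3, and no other call of a member changed. Depth limits miR-98-5p, let-7i-5p, let-7d-5p and let-7b-5p in Huh-7, with 22 to 124 reads.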
